A study of Sus scrofa with 18 samples.

Results

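Genes of endothelial identity and of cell adhesion were examined in cultured pig (Sus scrofa) cells that are labelled as kidney endothelial cells. The 10 genes were listed by symbol and matched to the gene names of the authors' deposited tables. Of these, 7 had a row among the 15240 genes of the tables and were followed in all 18 libraries, namely PECAM1, VCAM1, ICAM1, JAM2, JAM3, F11R and MCAM. The other 3, CDH5, KDR and TEK, had no row by symbol and none by Ensembl identifier, and were not analysed here. The smallest total count of any gene in the tables was 23.

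All listed genes encode proteins of the cell surface. CDH5 (VE-cadherin) is the cadherin of endothelial adherens junctions, KDR (VEGF receptor 2) is the main signalling receptor for vascular endothelial growth factor, and TEK (TIE2) is the receptor for angiopoietins. PECAM1 (CD31) holds neighbouring endothelial cells together and is also found on platelets and leukocytes. VCAM1 and ICAM1 are ligands for leukocyte integrins, VCAM1 for integrin α4β1 and ICAM1 for LFA-1 and Mac-1, and cytokines that act through NF-kB are known to raise both. F11R (JAM-A), JAM2 (JAM-B) and JAM3 (JAM-C) are junctional adhesion molecules, of which F11R is also abundant in epithelia. MCAM (CD146) is an adhesion molecule of endothelial cells, pericytes and smooth muscle. The 7 genes with a row all belong to the immunoglobulin superfamily.

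Total RNA was sequenced from purchased primary cells that had been cultured on gelatin in an endothelial medium with VEGF and frozen at passage 5. By their labels, 5 libraries were GFP control (a plasmid for a fluorescent protein), 5 were ST8Sia6 plasmid (a plasmid for a sialyltransferase, spelt St8i6a in the labels), 5 were cell-cell interaction and 2 were wild type, and the last, named for kidney endothelial cells (KEC) with all cells added, is called KEC plus all cells. Plasmids were delivered with Lipofectamine LTX 24 hours before collection, and the protocols describe 4 experiments and a co-culture with blood mononuclear cells (PBMCs) from 4 individuals. Neither the plasmid of the cell-cell interaction libraries, nor the experiment of any library, nor the other cells of KEC plus all cells were stated in the labels. Nothing showed that libraries of 1 label came from separate cultures, so p-values measured the spread between these libraries, which may be technical.

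Counts summed to between 14867035 and 33301008 per library. The 13 mitochondrially encoded protein genes took 12.99% to 23.9% of counts in 6 libraries, namely those labelled ST8Sia6 plasmid 4 and 5 and cell-cell interaction 1 to 4, and 1.04% to 4.14% in the other 12. Cell-cell interaction 5 was at 3.06%. Counts of ST8SIA6, the gene named for the plasmid, did not separate the labels (0 to 61 in ST8Sia6 plasmid, 0 to 27 in GFP control and 0 to 439 in cell-cell interaction). The authors' deposited fold changes, when expressed as a weighted sum of the libraries, put a positive weight on GFP control 5 for the St8i6a plasmid side (0.232). They put ST8Sia6 plasmid 4 and 5 on the side of co-cultured GFP cells (weights of -0.265 and -0.231) and wild type 1 on the side of co-cultured St8i6a cells (-0.161). The same weights split the cell-cell interaction label, with libraries 1 and 2 on the side of co-cultured GFP cells (-0.264 and -0.245) and 3 to 5 on that of co-cultured St8i6a cells (-0.240, -0.293 and -0.337). By these weights, the label pools cells of both plasmids. Every group named here is therefore a label, and every direction is a direction between labels.

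The markers that define endothelial cells were at low levels in all libraries or were not analysed here. Of 41 endothelial identity genes, 20 had a row. Their median level was 0.417 RPKM (counts scaled to the library total and to gene length), against a median of 4.41 RPKM over all genes, and 14 of the 20 were under 1 RPKM. Those 14 included ERG, a transcription factor of the endothelial lineage, at 0.128 RPKM with 0 counts in 6 libraries, and EMCN (endomucin) at 0.0270 RPKM with 0 counts in 5. TIE1, the partner of TEK, had 0.0844 RPKM and CLDN5, the claudin of endothelial tight junctions, 0.0758 RPKM. VWF, CD34, SOX17, NOS3, SELE and SELP were among the 21 genes without a row. The highest of the list were EHD3, an endocytic protein of glomerular endothelium that other cells also express, at 34.3 RPKM, FLT1, VEGF receptor 1, at 9.72 RPKM, and FLI1, an ETS factor, at 2.62 RPKM.

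The medians of epithelial and mesenchymal markers lay well above these levels, and that of leukocyte markers did not. Of 25 epithelial markers, 20 had a row, their median was 9.71 RPKM and 10 were over 10 RPKM, with KRT8, a keratin of simple epithelia, at 250 RPKM, CLDN1, a tight junction claudin, at 137 RPKM and CDH6, a cadherin of kidney tubule development, at 114 RPKM. The other end of this list was low, with 6 of the 20 under 1 RPKM, among them EPCAM, an adhesion molecule of epithelia (0.285 RPKM), CLDN7, a claudin (0.221 RPKM), and LRP2, megalin of the proximal tubule (0.0796 RPKM). KRT19, PAX8, GRHL2, UMOD and AQP2 had no row. Of 19 pericyte, smooth muscle and fibroblast markers, 14 had a row, with a median of 13.7 RPKM and 8 over 10 RPKM. The collagen genes COL1A2 and COL1A1 were at 1526 and 1067 RPKM and vimentin (VIM) at 1320 RPKM. At the low end of this list were PDGFRB (1.72 RPKM) and MYH11 (0.0367 RPKM), and PDGFRA, RGS5, THY1, DCN and LUM had no row. The 17 leukocyte markers with a row, of 30 listed, had a median of 0.1001 RPKM, and PTPRC (CD45), which defines leukocytes, had 0 counts in 12 libraries. The low levels of most endothelial markers go against the endothelial label of the cells, although EHD3 and FLT1 were above the median gene. The series held no reference library of endothelial cells, so the identity of the cells was not tested, and they are called by their labels below. In RNA from whole cultures, fewer cells of a type and less RNA per cell cannot be told apart.

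**Figure D1:**
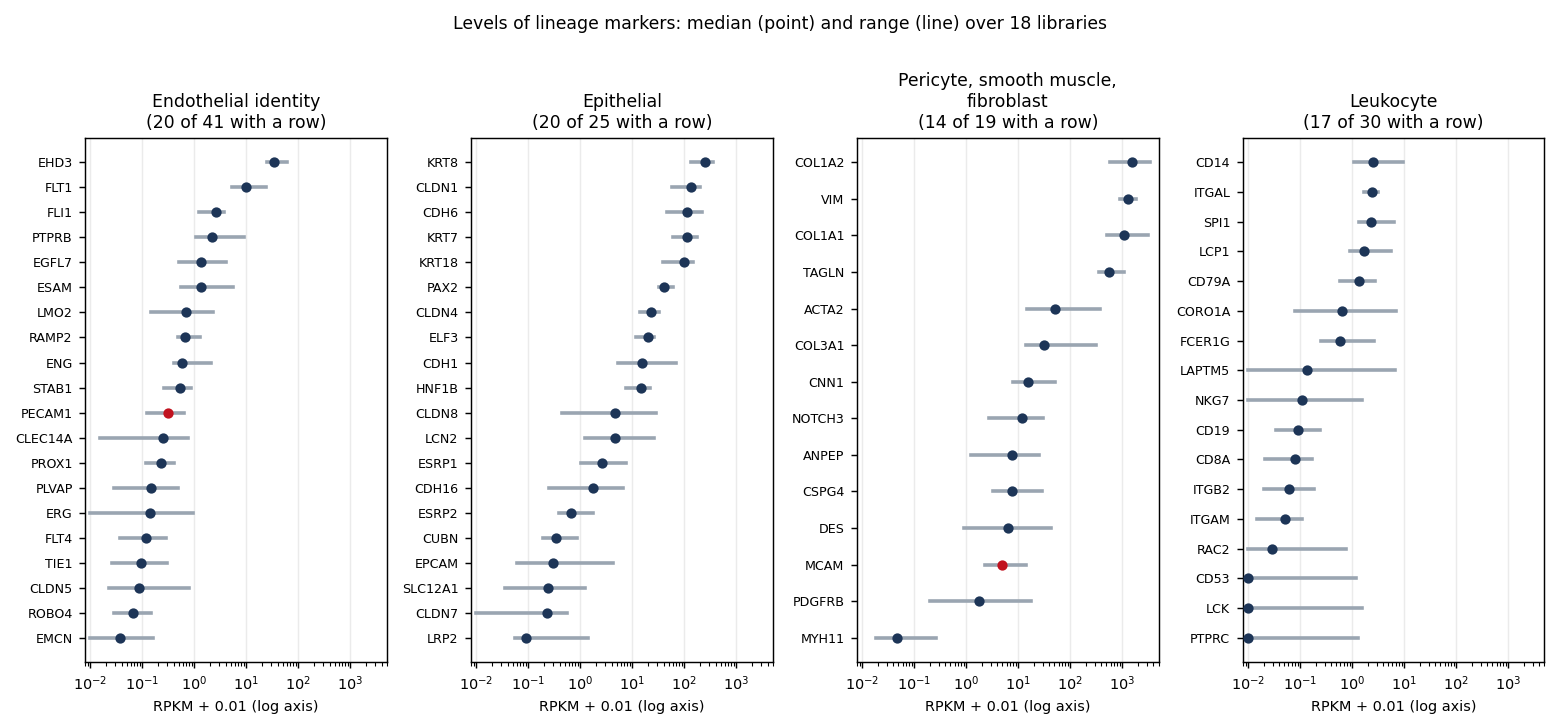
Median (point) and range (line) over 18 libraries of each marker with a row, in RPKM + 0.01 on a log axis, for 4 lists of cell type markers, with PECAM1 and MCAM in red. In the endothelial list 14 of 20 genes have a median under 1 RPKM, whereas 10 of 20 epithelial markers have a median over 10 RPKM and 6 under 1 RPKM.

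Per gene length, the 7 genes ran from among the most to among the least abundant of the table. F11R had a median of 96.8 RPKM over 18 libraries (range 44.4 to 158), which was rank 329 of 15240 genes. ICAM1 had 79.2 RPKM (34.1 to 240) at rank 437 and VCAM1 had 75.5 RPKM (34.6 to 513) at rank 460. All 3 thus ranked among the 460 highest of the table. MCAM (4.82 RPKM, range 2.34 to 14.0) and JAM3 (3.80 RPKM, range 2.64 to 8.77) lay near the median gene. PECAM1 had 0.306 RPKM (0.111 to 0.613) at rank 12784, and JAM2 had 0.0674 RPKM (0 to 0.269) at rank 14482. The order VCAM1 over MCAM and JAM3 over PECAM1 held in 18 of 18 libraries without overlap of the ranges, and PECAM1 exceeded JAM2 within every library although the ranges overlapped. Within the top group, F11R exceeded ICAM1 in 15 of 18 libraries, but ICAM1 exceeded VCAM1 in only 4, and MCAM exceeded JAM3 in 10, so these neighbours in the order were not separated beyond their spread.

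**Figure D2:**
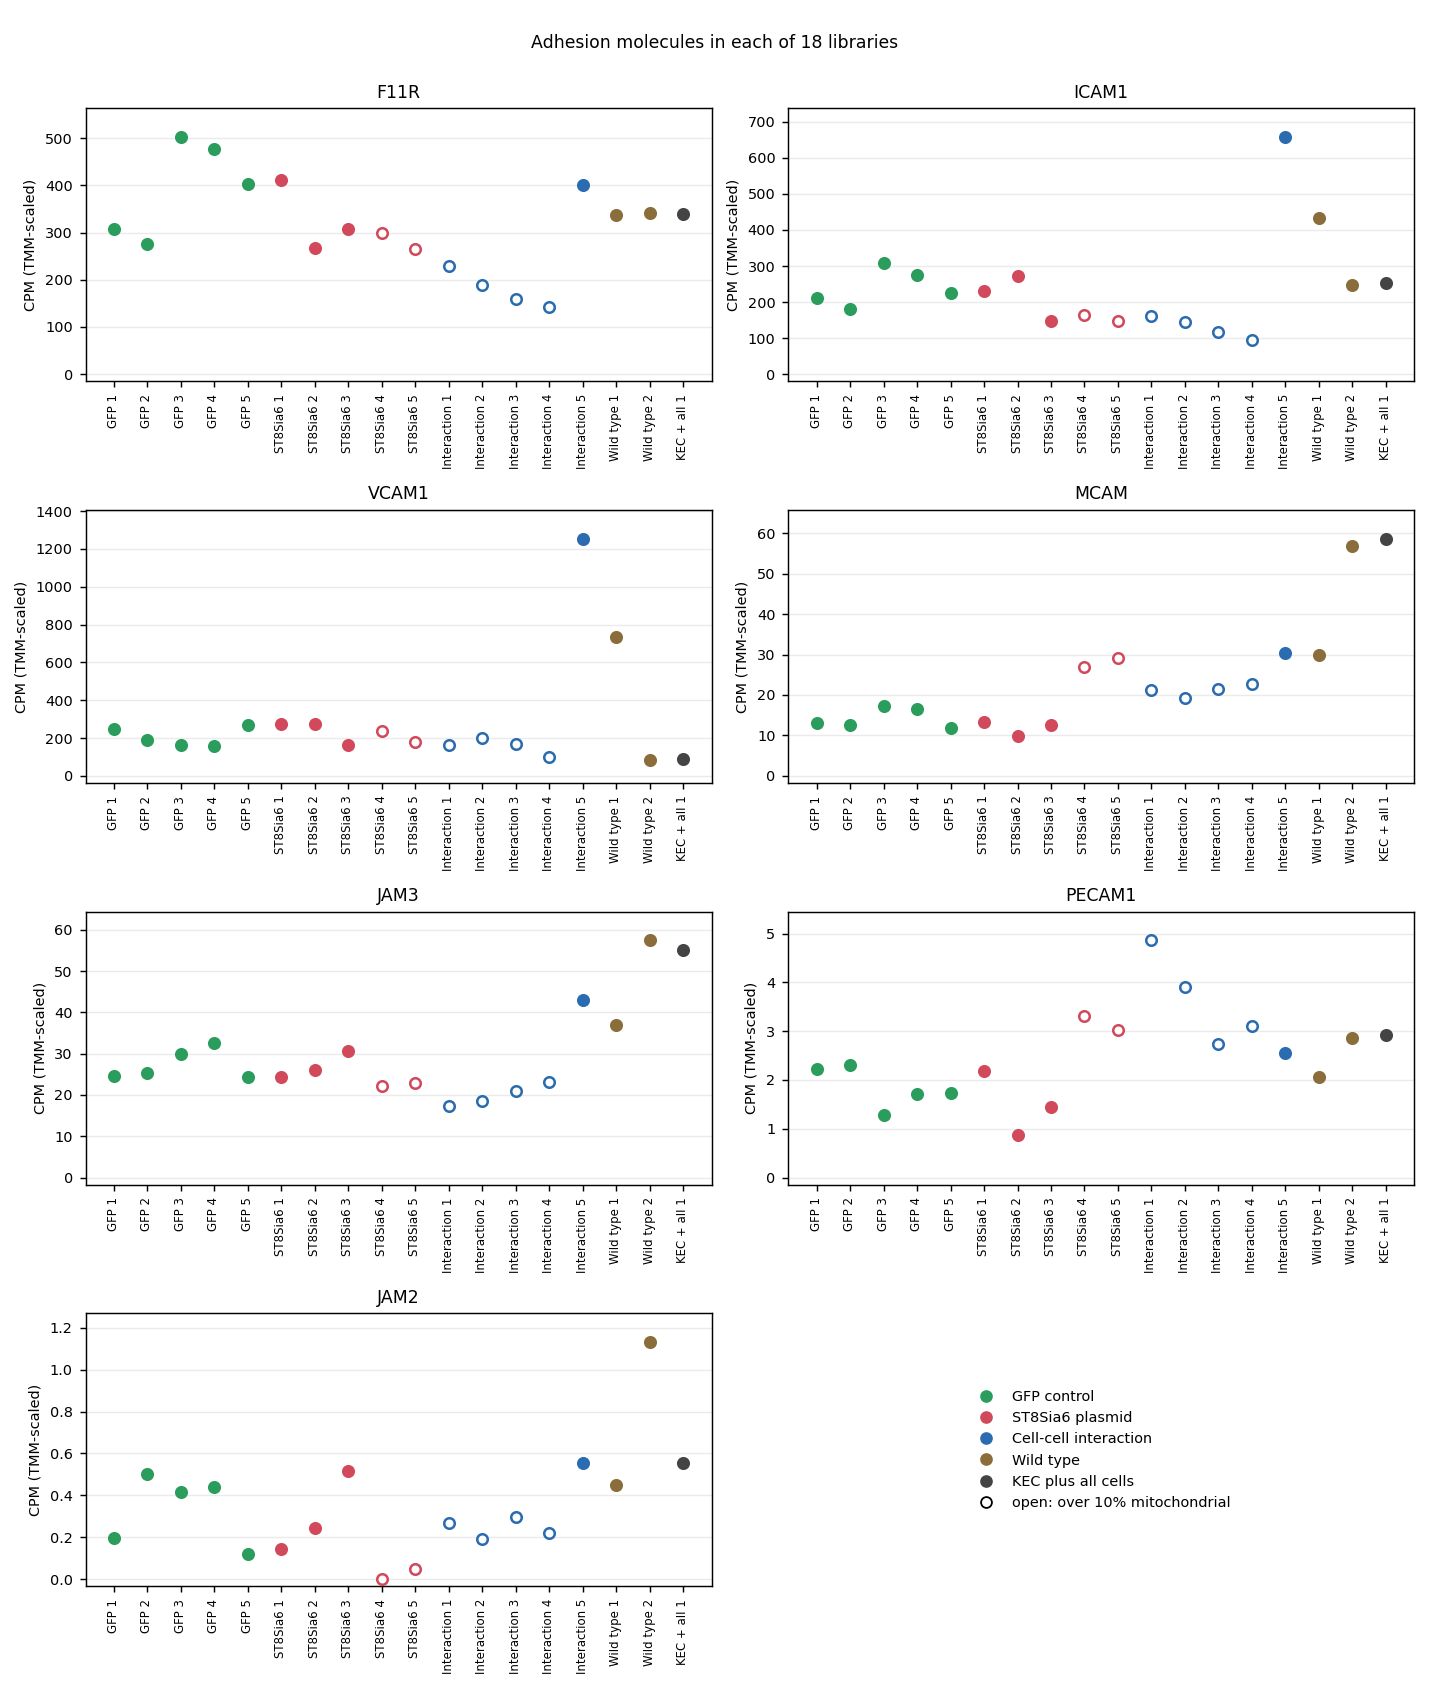
Level of each of the 7 genes in each of 18 libraries, in CPM (counts relative to TMM-scaled library totals), coloured by label, with open circles for libraries above 10% mitochondrial counts. Each panel has its own scale, and cell-cell interaction 5 is the highest library of VCAM1 (1255 CPM) and ICAM1 (658 CPM).

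PECAM1 was the only one of the 4 listed endothelial identity genes with a row (ENSSSCG00000017277.5, build susScr11, chromosome 12, 14582481 to 14723336, plus strand, counted over 7936 bases). It had 1059 counts in all, or 25 to 90 per library. In CPM, a scale on which libraries can be compared for 1 gene, the libraries labelled GFP control 1 to 5 had 2.23, 2.30, 1.29, 1.72 and 1.74 CPM of PECAM1. Those labelled ST8Sia6 plasmid 1 to 5 had 2.19, 0.879, 1.45, 3.32 and 3.02 CPM. The ST8Sia6 plasmid libraries thus lay on both sides of GFP control, and the higher pair were the libraries above 10% mitochondrial. Cell-cell interaction 1 to 5 had 4.86, 3.91, 2.73, 3.10 and 2.56 CPM of PECAM1, all above every GFP control library. Wild type 1 and 2 had 2.06 and 2.87 CPM and KEC plus all cells 2.92 CPM, within the range of the other labels. Over all labels PECAM1 was at 2.73 to 4.86 CPM (median 3.21) in the 6 libraries above 10% mitochondrial and at 0.879 to 2.92 CPM (median 2.12) in the other 12.

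VCAM1 varied more between libraries than any other of the 6 genes that were detected in all of them, with a highest level 14.8 times its lowest. It lies on chromosome 4 (ENSSSCG00000006862.5, 117496908 to 117511226, minus strand, 2445 bases) and had 129802 counts in all. GFP control 1 to 5 had 249, 192, 164, 159.8 and 268 CPM of VCAM1. ST8Sia6 plasmid 1 to 5 had 272, 276, 165, 239 and 177 CPM. These 10 libraries overlapped, at 159.8 to 276 CPM. Cell-cell interaction 1 to 5 had 160.5, 199, 166, 99.7 and 1255 CPM of VCAM1, so that 1 library stood far above the other 4. The wild type libraries were as far apart, at 734 and 84.5 CPM, and KEC plus all cells was at 88.3 CPM. The mean of VCAM1 was 207 ± 49.5 CPM in GFP control, 226 ± 52.2 in ST8Sia6 plasmid and 376 ± 492 in cell-cell interaction (SD, n = 5 each), the SD of the last being larger than its mean.

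ICAM1 was high in the same 2 libraries as VCAM1. It lies on chromosome 2 (ENSSSCG00000013655.5, 69097122 to 69108205, plus strand, 2748 bases), with 111156 counts in all. GFP control 1 to 5 had 211, 181, 308, 274 and 225 CPM of ICAM1. ST8Sia6 plasmid 1 to 5 had 229.8, 273, 148, 165 and 148 CPM, overlapping GFP control but with 3 libraries below all of it. Cell-cell interaction 1 to 4 had 160.1, 146, 117 and 93.8 CPM, each below every GFP control library, and cell-cell interaction 5 had 658 CPM, above every other library of the series. Wild type 1 and 2 had 433 and 246 CPM and KEC plus all cells had 254 CPM of ICAM1. Libraries above 10% mitochondrial had 93.8 to 165 CPM of ICAM1 (median 147, n = 6), against 148 to 658 CPM (median 250.03, n = 12) in the others.

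The balance between the integrin ligands differed by library. The ratio of VCAM1 to ICAM1 in RPKM was 1.33, 1.19, 0.601, 0.655 and 1.34 in GFP control 1 to 5. It was 1.33, 1.14, 1.25, 1.63 and 1.35 in ST8Sia6 plasmid 1 to 5, and 1.13, 1.54, 1.59, 1.20 and 2.14 in cell-cell interaction 1 to 5. VCAM1 was therefore above ICAM1 in all 10 libraries of these 2 labels and in 3 of 5 GFP control libraries. Wild type 1, at 1.91, resembled cell-cell interaction 5, whereas wild type 2 (0.386) and KEC plus all cells (0.391) had the lowest ratios of the series. Across all 18 libraries the log2 levels of VCAM1 and ICAM1 had a Pearson correlation of 0.67 and a Spearman correlation of 0.30, given as a description of libraries that share labels, depth and mitochondrial share.

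**Figure D3:**
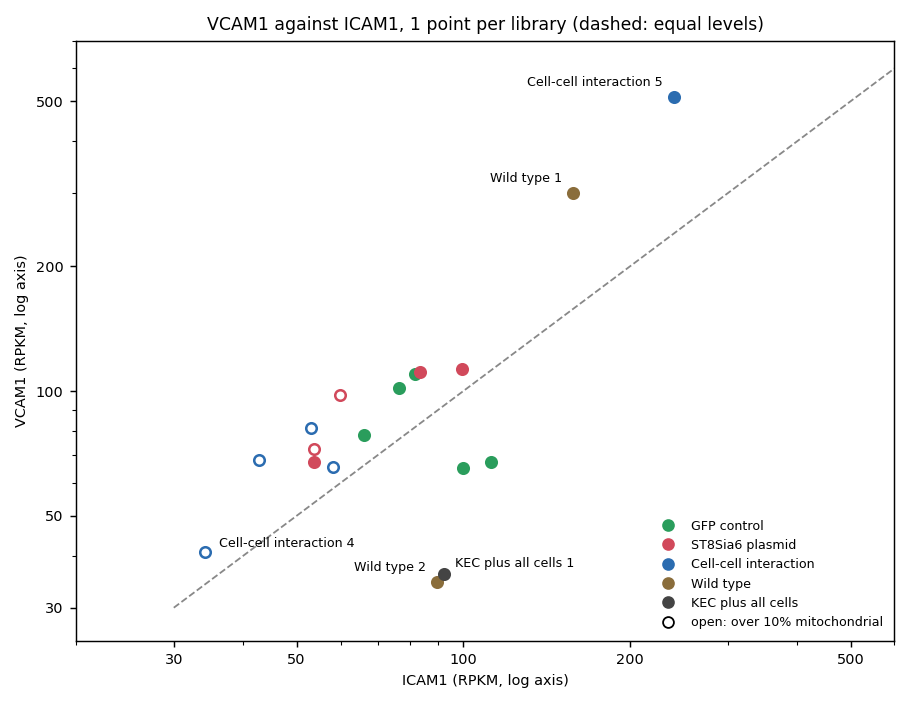
VCAM1 against ICAM1 in RPKM on log axes, 1 point per library, with open circles for libraries above 10% mitochondrial counts and a dashed line of equal levels. Cell-cell interaction 5 and wild type 1 sit at the upper right, above the line (ratios 2.14 and 1.91), and wild type 2 and KEC plus all cells sit below it (0.386 and 0.391).

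The summed level of 14 genes that feed into ICAM1 and VCAM1 induction (NF-kB subunits and inhibitors, cytokines and their receptors) did not set these libraries apart. It was 2599 CPM in cell-cell interaction 5 and 2281 CPM in wild type 1, within the 1793 to 3012 CPM of GFP control. The summed level of the 17 leukocyte markers was 88.9 CPM in cell-cell interaction 5 and 69.8 CPM in wild type 1, against 46.2 to 50.2 CPM in cell-cell interaction 1 to 4 and 50.5 to 141 CPM in GFP control. The part of leukocyte RNA in the VCAM1 and ICAM1 levels was not tested.

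F11R was the most abundant of the 3 junctional adhesion molecules (ENSSSCG00000006369.5, chromosome 4, 89425039 to 89449932, plus strand, 3178 bases, 145020 counts in all). GFP control 1 to 5 had 307, 276, 503, 478 and 402 CPM of F11R. ST8Sia6 plasmid 1 to 5 had 410.5, 267, 308, 299.9 and 265 CPM, overlapping GFP control. Cell-cell interaction 1 to 4 were the lowest libraries of the series, at 229, 188, 159 and 141 CPM of F11R, while cell-cell interaction 5 had 401 CPM, within GFP control. Wild type 1 and 2 (337 and 342 CPM) and KEC plus all cells (340.01 CPM) nearly coincided.

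JAM3 (ENSSSCG00000015256.4, chromosome 9, 60613400 to 60738924, plus strand, 6555 bases) was the least variable of the 6 genes detected in all libraries, with a highest level 3.32 times its lowest. GFP control 1 to 5 had 24.5, 25.3, 29.9, 32.5 and 24.3 CPM of JAM3. ST8Sia6 plasmid 1 to 5 had 24.3, 26.2, 30.5, 22.2 and 22.9 CPM, overlapping GFP control. Cell-cell interaction 1 to 5 had 17.3, 18.5, 21.1, 23.2 and 43.0 CPM, the first 4 below and the last above every GFP control library. Wild type 1 and 2 had 37.0 and 57.5 CPM and KEC plus all cells 55.1 CPM of JAM3, all above GFP control. The 6 libraries above 10% mitochondrial (17.3 to 23.2 CPM) did not overlap the other 12 (24.3 to 57.5 CPM).

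JAM2 was close to absent (ENSSSCG00000023028.3, chromosome 13, 189165968 to 189275839, plus strand, 4205 bases), with 164 counts over 18 libraries. The counts of JAM2 were 7, 14, 11, 11 and 3 in GFP control 1 to 5, 4, 7, 16, 0 and 1 in ST8Sia6 plasmid 1 to 5, and 5, 3, 5, 4 and 15 in cell-cell interaction 1 to 5. Those of the wild type libraries were 14 and 30, and that of KEC plus all cells was 14. The count of 0 in ST8Sia6 plasmid 4 allowed a level of up to 0.153 CPM (a floor of 3 counts, covering counting error only), which is above the 0.121 CPM measured in GFP control 5. Differences of JAM2 between labels were at the edge of what this depth can show.

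MCAM (ENSSSCG00000015116.5, chromosome 9, 46512784 to 46522083, minus strand, 4195 bases, 10365 counts in all) differed between the labels more clearly. GFP control 1 to 5 had 13.1, 12.6, 17.2, 16.5 and 11.8 CPM of MCAM. ST8Sia6 plasmid 1 to 3 had 13.2, 9.81 and 12.5 CPM, near GFP control, whereas ST8Sia6 plasmid 4 and 5 had 26.9 and 29.0 CPM. Cell-cell interaction 1 to 5 had 21.2, 19.2, 21.4, 22.8 and 30.5 CPM, all above GFP control. Wild type 1 had 29.9 CPM, and the highest levels of MCAM were in wild type 2 (56.9 CPM) and KEC plus all cells (58.7 CPM). Wild type 2 and KEC plus all cells, which were low in VCAM1, were thus the highest libraries of both JAM3 and MCAM.

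PECAM1 and MCAM rose and F11R fell in the cell-cell interaction libraries relative to GFP control. PECAM1 was at 3.43 ± 0.955 CPM against 1.86 ± 0.416 CPM and MCAM at 23.0 ± 4.35 against 14.2 ± 2.44 CPM (SD, n = 5 each), in both cases with no overlap between labels. F11R was at 224 ± 105 against 393 ± 101 CPM, with overlap. By the labels, this comparison sets co-cultured cells against cells with a control plasmid, although the labels do not give the plasmid of the co-cultured cells and the authors' weights place both under this label. By the quasi-likelihood test of edgeR, with p-values adjusted over 13951 genes after Benjamini and Hochberg, the log2 fold change was 0.91 ± 0.25 (SE, adjusted p = 0.0161) for PECAM1, 0.72 ± 0.16 (adjusted p = 0.00545) for MCAM and -0.79 ± 0.29 (adjusted p = 0.0482) for F11R. These were 3 of 6 genes tested, in a comparison in which 39.5% of all genes tested passed, 20.8% upward and 18.7% downward, and 49.4% had an unadjusted p under 0.05. The libraries of the 2 labels did not overlap for 24.6% of all genes tested. VCAM1 (0.89 ± 0.62, adjusted p = 0.273), ICAM1 (-0.0041 ± 0.48, adjusted p = 0.995) and JAM3 (-0.12 ± 0.23, adjusted p = 0.701) did not pass.

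Cell-cell interaction 5 decided several of these values. Without it, ICAM1 had a log2 fold change of -0.86 (adjusted p = 0.00450) and JAM3 of -0.42 (adjusted p = 0.0245), both then passing, that of F11R was -1.11 (adjusted p = 0.00194), and that of VCAM1 turned to -0.37 without passing. Cell-cell interaction 5 was also the one library of its label under 10% mitochondrial, and set alone against the 5 GFP control libraries it gave 2.55 ± 0.30 for VCAM1 (adjusted p = 0.0212, the lone library being assumed to vary like the others), 0.41 ± 0.45 for PECAM1 (adjusted p = 0.692), 1.06 ± 0.24 for MCAM (adjusted p = 0.1098) and -0.011 ± 0.35 for F11R (adjusted p = 0.991). With all 18 libraries in 1 fit and a term for libraries above 10% mitochondrial, none of the 3 genes passed, the values being 0.20 for PECAM1 (adjusted p = 0.772), 0.37 for MCAM (adjusted p = 0.538) and -0.39 for F11R (adjusted p = 0.426). The call of F11R was also lost with RLE scaling (adjusted p = 0.0502) and without any 1 of GFP control 3, 4 and 5 or cell-cell interaction 1 to 4 (0.0575 to 0.0955), and that of MCAM with all groups in 1 fit (0.0554).

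Relative to ST8Sia6 plasmid, none of the 6 genes passed in cell-cell interaction, where 0.159% of 13849 genes did (22 genes, and 32.6% at an unadjusted p under 0.05). The libraries of these labels overlapped for each of the 6, and did not overlap for 8.65% of all genes tested. The log2 fold change was 0.70 ± 0.36 for PECAM1 (adjusted p = 0.194), 0.37 ± 0.30 for MCAM (adjusted p = 0.397) and -0.44 ± 0.27 for F11R (adjusted p = 0.261). It was 0.76 ± 0.63 for VCAM1, 0.31 ± 0.50 for ICAM1 and -0.0059 ± 0.23 for JAM3, with adjusted p from 0.402 to 0.987. Without ST8Sia6 plasmid 4 and 5, the libraries that the authors' fold changes weighed on another side, PECAM1 (1.20 ± 0.35, adjusted p = 0.0289) and MCAM (0.97 ± 0.18, adjusted p = 0.00609) passed, as did 5097 genes in all. Without cell-cell interaction 5, F11R passed (-0.76 ± 0.18, adjusted p = 0.0291), among 3308 genes.

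Between ST8Sia6 plasmid and GFP control, 0 of the 6 genes tested passed, as did 0% of 13840 genes by the quasi-likelihood test of edgeR, while 9.88% had an unadjusted p under 0.05 and DESeq2 called 11 genes, none of them among these 6. The log2 fold changes lay between -0.32 ± 0.19 for F11R and 0.39 ± 0.30 for MCAM, with adjusted p from 0.517 to 0.777. PECAM1 was at 2.17 ± 1.03 against 1.86 ± 0.416 CPM (log2 fold change 0.24 ± 0.36), VCAM1 at 0.14 ± 0.21, ICAM1 at -0.29 ± 0.20 and JAM3 at -0.090 ± 0.12 on the same log2 scale. MCAM and PECAM1 were at -0.24 and -0.29 with only the libraries under 10% mitochondrial. A p that misses the threshold does not show that the levels were alike.

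JAM2 was too low for these 3 fits. The difference in mean log2(CPM + 0.5) was -0.30 between ST8Sia6 plasmid and GFP control (p = 0.238), -0.042 between cell-cell interaction and GFP control (p = 0.794) and 0.25 between cell-cell interaction and ST8Sia6 plasmid (p = 0.238; exact permutation tests, two-sided, 252 regroupings, n = 5 and 5). None was larger than the spread between libraries.

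Relative to GFP control, MCAM was the 1 gene of 7 tested that rose in wild type, in a comparison in which 3.16% of 14496 genes passed (1.97% upward). MCAM was at 43.4 ± 19.1 CPM in wild type (SD, n = 2) against 14.2 ± 2.44 CPM in GFP control, without overlap, and its log2 fold change was 1.62 ± 0.25 (adjusted p = 0.0180). JAM3 was at 47.2 ± 14.5 against 27.3 ± 3.71 CPM, also without overlap, but did not pass (0.80 ± 0.20, adjusted p = 0.0766). The libraries did not overlap for 25.6% of all genes tested. PECAM1, VCAM1, ICAM1, JAM2 and F11R had log2 fold changes between -0.21 ± 0.25 for F11R and 1.23 ± 0.62 for JAM2, with adjusted p from 0.316 to 0.690. The call of MCAM was lost without wild type 2 (1.06, adjusted p = 0.156), GFP control 1 (adjusted p = 0.0578) or GFP control 2 (adjusted p = 0.0529), and without both of the last, which had the most leukocyte transcripts (1.52, adjusted p = 0.123). JAM3 passed without wild type 1 (1.09, adjusted p = 0.0405), and VCAM1 was at -1.29 without it and at 1.81 without wild type 2. This comparison and those of cell-cell interaction and ST8Sia6 plasmid with GFP control share the 5 GFP control libraries.

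**Figure D4:**
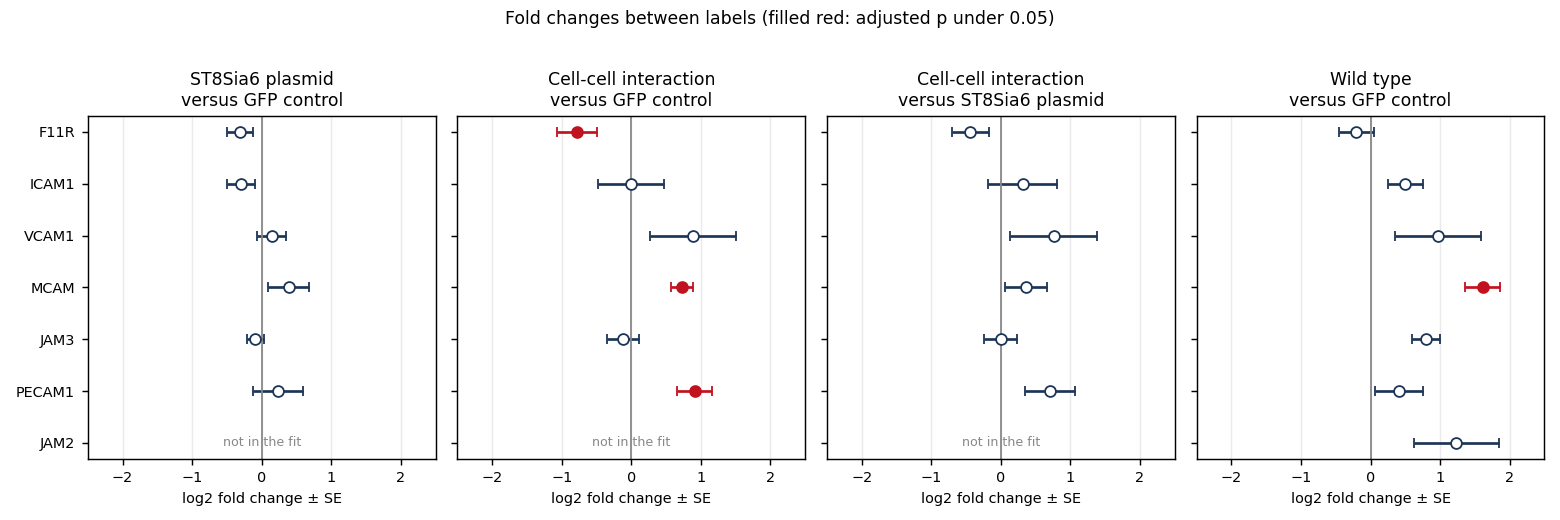
Log2 fold change ± SE of each gene in 4 comparisons between labels, with filled red points for an adjusted p under 0.05. PECAM1 (0.91), MCAM (0.72) and F11R (-0.79) passed in cell-cell interaction versus GFP control, and MCAM (1.62) in wild type versus GFP control.

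In the authors' deposited table of their own comparisons, MCAM and PECAM1 were higher in the groups that the authors named as co-cultured. For GFP control against co-cultured GFP cells, the authors' deposited table gave a log2 fold change of -0.70 for MCAM (their FDR 0.000812), -0.99 for PECAM1 (0.00269) and 1.62 for JAM2 (0.0289), a negative value meaning higher in co-culture. Of all genes of that comparison, 49.5% had an FDR under 0.05 in the authors' deposited table. F11R (0.67) and JAM3 (0.47) had an FDR of 0.0627 and 0.0520. All libraries on the co-cultured GFP side were above 10% mitochondrial, at 12.99% to 17.98%. Those on the other side, GFP control 1 to 4, were at 1.04% to 1.84%. Co-culture and mitochondrial share therefore cannot be told apart in that comparison. For St8i6a plasmid against co-cultured St8i6a cells, where 25.2% of genes were under 0.05, the authors' deposited table gave -1.15 for MCAM (8.06e-08), -0.73 for PECAM1 (0.0554) and -1.20 for VCAM1 (0.0739). None of the 7 genes was under 0.05 for St8i6a plasmid against GFP control (1.37% of genes) or between the co-cultured groups (4.74% of genes) in the authors' deposited table. Between the co-cultured groups it gave -1.54 for VCAM1 (0.0631) and -1.07 for ICAM1 (0.142), a negative value meaning higher in co-cultured St8i6a cells. These comparisons share groups with each other and libraries with the comparisons between labels above.

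**Figure D5:**
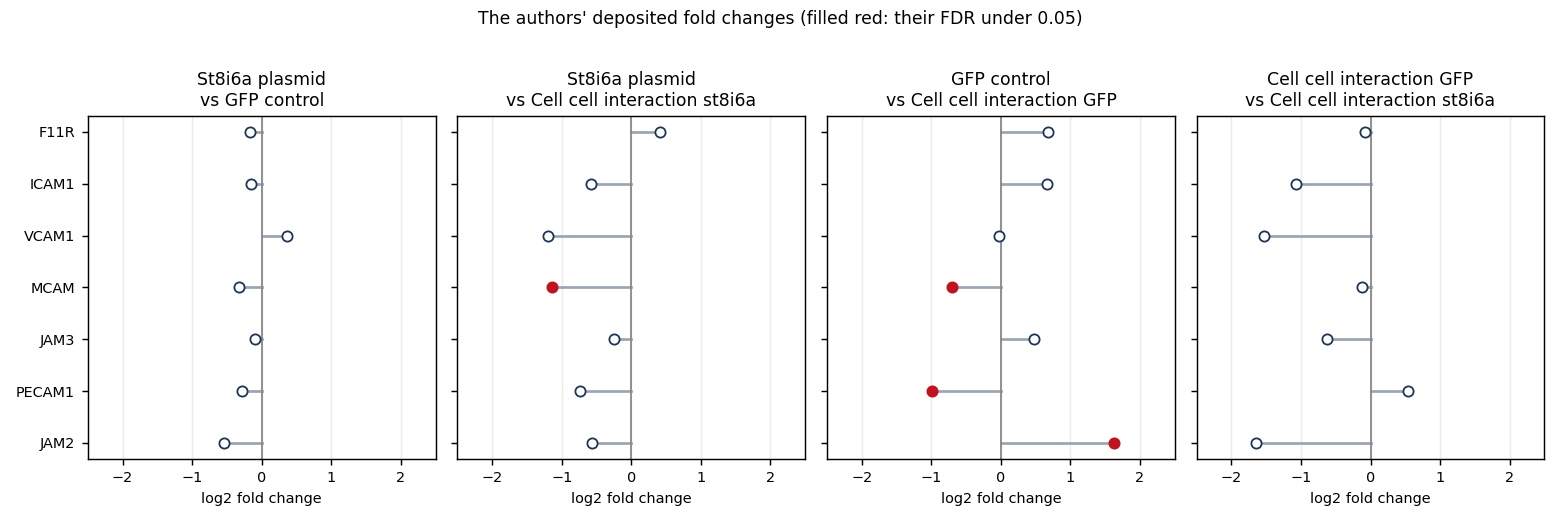
Log2 fold changes of the 7 genes as given in the authors' deposited table, in their 4 comparisons, with filled red points for their FDR under 0.05. A value left of 0 means higher in the second group named, as for MCAM in both comparisons with co-cultured cells (-1.15 and -0.70). By the weights behind these values, the co-cultured GFP libraries were all above 10% mitochondrial and the GFP control libraries set against them all under it.

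Other endothelial identity genes moved in both directions in the cell-cell interaction libraries. Of 15 tested relative to GFP control, PECAM1 included, 6 rose and 2 fell (median log2 fold change 0.27, against -0.018 over all genes tested), where 20.8% of all genes tested rose and 18.7% fell. These same shares of all 13951 genes are the background of every list count in this comparison. CLEC14A, a C-type lectin of vessels, rose from 0.271 to 3.27 CPM (log2 fold change 3.57 ± 0.51, adjusted p = 0.000703), and PTPRB, the phosphatase that acts on TEK and CDH5, from 11.8 to 39.6 CPM (1.78 ± 0.34, adjusted p = 0.00277). FLT1 rose from 40.3 to 89.4 CPM (1.18 ± 0.23, adjusted p = 0.00339). EHD3 fell from 163 to 114 CPM (-0.49 ± 0.17, adjusted p = 0.0434), and FLI1 was at -0.44 ± 0.21 (adjusted p = 0.111). The summed level of the 20 genes was 221 to 298.5 CPM in GFP control and 262 to 363 CPM in cell-cell interaction.

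Ligands and partners of KDR, TEK and CDH5 were measured although these 3 genes were not. Of 10 genes tested from a list around KDR and TEK, 4 rose and 2 fell in cell-cell interaction versus GFP control (median 0.24). This stands beside 20.8% of all genes rising and 18.7% falling. The list held ligands and co-receptors, but also ANGPTL4, FLT1, FLT4, TIE1 and PTPRB, so not all of its genes are ligands or co-receptors of KDR or TEK. VEGFC, a ligand of KDR and FLT4, rose by 0.94 ± 0.17 on the log2 scale (70.0 against 37.2 CPM, adjusted p = 0.00242). ANGPT2, the TEK ligand released by activated endothelium, fell by 3.74 on the log2 scale (0.618 against 8.49 CPM, SE 0.35, adjusted p = 0.000111). Over all labels, ANGPT2 was at 0.192 to 0.887 CPM in the 6 libraries above 10% mitochondrial and at 0.290 to 14.7 CPM in the other 12. Of 8 genes of the cadherin and catenin complex, 1 rose, the PTPRB already named, and 2 fell (median -0.17), among them CDH1 (E-cadherin), at 55.6 against 366 CPM (-2.69 ± 0.31, adjusted p = 0.000277). CDH1 too was split by mitochondrial share over all labels, at 40.7 to 87.3 CPM in the 6 libraries above 10% and 90.3 to 549 CPM in the other 12. The 3 of 8 that passed are close to the 39.5% of all genes that did.

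The adhesion lists are to be read against 20.8% of all genes rising and 18.7% falling in this comparison. Of 7 leukocyte adhesion ligands, VCAM1 and ICAM1 included, 0 rose and 2 fell in cell-cell interaction versus GFP control (median -0.19). The 2 were ALCAM, a ligand of CD6 (-0.75 ± 0.16, adjusted p = 0.00455), and NECTIN3, a nectin of cell junctions (-0.45 ± 0.14, adjusted p = 0.0230). Of 8 integrin subunits of their counter-receptors, 1 rose and 2 fell (median -0.66), the latter being ITGA9 (-1.68 ± 0.45, adjusted p = 0.0146) and ITGAL, the α chain of LFA-1 (-0.49 ± 0.14, adjusted p = 0.0182). Of 13 genes of the JAM family and its junction scaffold, 5 rose and 3 fell (median -0.19). AFDN (afadin), a scaffold that binds nectins and JAMs, rose (0.67 ± 0.15, adjusted p = 0.00522) and PARD6B, a polarity protein, fell (-1.35 ± 0.19, adjusted p = 0.000634). Of 14 NF-kB and cytokine inputs, 5 rose and 2 fell (median 0.32), with RELB, an NF-kB subunit, at 0.75 ± 0.13 (adjusted p = 0.00198) and TNFRSF1A, the main TNF receptor, at -0.84 ± 0.11 (adjusted p = 0.000517). With so few genes per list, none of these counts is read as particular to its list.

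Among markers of other cell types, 10 of 19 epithelial genes tested fell and 2 rose in cell-cell interaction versus GFP control (median -0.56), where 18.7% of all genes fell and 20.8% rose. CLDN8, a claudin of the distal nephron, was at 2.07 against 45.2 CPM (-4.39 ± 0.34, adjusted p = 4.54e-05), CDH16, kidney-specific cadherin, at -3.87 ± 0.38 (adjusted p = 0.000131) and KRT8 at -0.56 ± 0.20 (adjusted p = 0.0465). Over all labels, CLDN8 was at 0.898 to 3.58 CPM in the 6 libraries above 10% mitochondrial and at 3.63 to 59.2 CPM in the other 12. The fit with the mitochondrial term is not reported here for single genes of the lists. Of 13 pericyte, smooth muscle and fibroblast markers, which include MCAM, 5 rose and 2 fell (median 0.15), PDGFRB, a receptor of pericytes and fibroblasts, rising from 2.40 to 33.2 CPM (3.82 ± 0.45, adjusted p = 0.000276) and DES (desmin) from 11.04 to 51.7 CPM (2.25 ± 0.39, adjusted p = 0.00173). COL1A2, COL1A1, VIM, CLDN1 and CDH6 did not pass. Of 11 leukocyte markers tested, 2 rose and 4 fell (median -0.49), with CD79A, of the B cell receptor, at 1.10 ± 0.21 (adjusted p = 0.00308) and SPI1, a myeloid transcription factor, at -1.18 ± 0.26 (adjusted p = 0.00562). Summed leukocyte markers were 94.4 and 141 CPM in GFP control 1 and 2, against 50.5 to 56.6 CPM in GFP control 3 to 5. The part of these 2 libraries in the falls was not tested. Of the 2 platelet markers with a row, GP9 and ITGB3, 0 passed. All 13 mitochondrially encoded genes rose (median 3.70), for example COX3 (14487 against 976 CPM) and ND3 (means of 574 and 36.9 CPM). The part of these shifts in the values of PECAM1, MCAM and F11R was not tested beyond the fits with the mitochondrial term and the left-out libraries above.

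Other genes followed each adhesion gene closely over the 18 libraries, given here as a description of points that share labels, depth and mitochondrial share. By the Pearson correlation of log2 CPM, the genes most like PECAM1 included NR3C2, the mineralocorticoid receptor (0.94), and TSC22D2 (0.92). For VCAM1 they were ARRDC3 (0.91), RANBP2 (0.90) and DMXL1 (0.90), and those for ICAM1 included B4GALT4 (0.93) and NOTCH2 (0.92). F11R was followed by SPTLC2, a subunit of serine palmitoyltransferase (0.96), ITPRID2 (0.93) and CXADR, a junction protein of the same family (0.93). For JAM3 the genes were LTBP1, COL8A1 and GPC4, of matrix and cell surface (0.98, 0.97 and 0.97), and for MCAM they were DKK2, a Wnt antagonist, COL14A1, a collagen, and VGLL3, a transcription cofactor (0.95, 0.95 and 0.94).

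Between the adhesion genes themselves, F11R and ICAM1 had a Pearson correlation of 0.74 over 18 libraries and of 0.36 over the 12 libraries under 10% mitochondrial. JAM3 and MCAM went the other way, from 0.60 over 18 libraries to 0.96 over those 12. PECAM1 and MCAM were at 0.55 and 0.69, and PECAM1 and F11R at -0.48 and 0.032. VCAM1 and JAM3 had values near 0 over 18 libraries (0.013).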

How the data were processed

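Total RNA of 18 libraries was measured. The submitters' processing notes name FastQC 0.11.5, STAR 2.7.10a, Subread 2.0.3 with featureCounts, edgeR 3.40.2 and, as build, susScr11. Not given in the sources used here are the annotation and the handling of strand and multi-mapped reads, so counts of overlapping or antisense genes are uncertain. The 2 deposited tables hold identical raw counts, whole numbers that the authors deposited per gene. Columns in log2 hold the authors' log2 CPM and log2 fold changes, per the file headers. The deposited log2 CPM were recomputed with a prior count of 2 to within 4.97e-14. A score column of the deposited tables holds signed fold changes. P-value and FDR columns come from the authors' comparisons. The other deposited column, gene length in bases, was used for RPKM. A total of 0 sample columns were left unmapped.

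The genes and lists were chosen with earlier results of these data known. Genes were matched by symbol (11927 symbols in the deposited tables and 65 from a table pairing identifiers with symbols). CPM were scaled by TMM over 18 libraries. Comparisons were fitted on the libraries of their labels alone in edgeR 4.0.16 (R 4.3.3; filterByExpr, TMM, robust quasi-likelihood F test, two-sided), adjusted by Benjamini-Hochberg over all genes tested, with a threshold of 0.05 and standard errors derived from the F statistic. The steps were tested on simulated counts with a single dispersion for all genes and no mitochondrial split. That test therefore cannot show how the fits behave on the uneven libraries here. JAM2, when filtered out, was compared by an exact permutation test in scipy 1.17.1. The weights behind the authors' fold changes were fitted by regression on log2 CPM over 9422 genes (r2 0.972 to 0.995).

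Named genes were the 7 with a row. From each other list they were the 2 with a symbol, a mean level of 1 CPM or more and the lowest p in cell-cell interaction versus GFP control. For 4 cell type lists the 3 of highest median RPKM were added, and for each adhesion gene of at least 1 CPM the 3 of highest correlation, of which some are not reported here. Low markers of the cell type lists and those without a row (ERG, EMCN, TIE1, CLDN5, VWF and others) and PTPRC were also named.

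Alternatives were RLE scaling, library sizes without mitochondrial genes, DESeq2 1.42.0, limma-voom (limma 3.58.1), no filter, a filter of 5 CPM, all groups in 1 fit, a mitochondrial term, libraries under 10% mitochondrial, a minimum absolute log2 fold change of 1, the omission of each library, other pseudocounts, plain library totals and Spearman correlation. Those without GFP control 1 and 2, without libraries weighed against their label, and with only libraries above 10% mitochondrial were chosen after seeing the data. A promoter search was not made. KEC plus all cells (1 library) entered no comparison.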

Additional observations from a re-analysis of the deposited data

Results flagged for a closer look

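Of 21 sets of 5 libraries with 1 label (7 genes, 3 labels), 4 held a library that lay far from the others by Dixon's criterion, where chance gives about 1 in 20. In all 4 it was cell-cell interaction 5, the highest of its label. VCAM1 was at 1254.59 CPM there, the nearest other library of the label being at 199 CPM. ICAM1 was at 658.399 CPM against 160.1 CPM, JAM3 at 42.9665 CPM against 23.2 CPM, and JAM2 at 0.55608 CPM against 0.297 CPM. For JAM2 these levels are 15 and 5 counts. The same library was the only one of its label under 10% mitochondrial (3.06%). PECAM1, F11R and MCAM gave no such library under any of the 3 labels.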

How the results depend on the processing

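Apart from leaving out 1 library, 85 values of counts and levels and 249 of single genes kept their direction and side of the threshold (a count within 1.5 times). Of the rest, 25 values of counts and levels moved. Among those of single genes, 26 reversed direction, 15 lost a pass and 5 gained one. In cell-cell interaction versus GFP control, the members passing were 3, but 1 with at least 5 CPM, 1 with libraries under 10% mitochondrial, 0 with the mitochondrial term and 0 at a minimum absolute log2 fold change of 1. Genes passing were 5510, but 371 with that term, 2345 at that fold change and 140 under 10%. ICAM1, at -0.0041, was at 0.0049 (RLE), 0.011 (library sizes without mitochondrial genes), 0.020 (at least 5 CPM), 0.0043 (DESeq2), 0.69 (mitochondrial term) and 1.42 (under 10%), and JAM3 at 0.28 and 0.61 under the last 2. In cell-cell interaction versus ST8Sia6 plasmid, the genes passing were 22, but 131 with at least 5 CPM, 2705 with DESeq2, 288 with limma-voom, 1320 with all groups in 1 fit, 271 with the mitochondrial term, 2 under 10% and 352 with only libraries above 10%. Without libraries weighed against their label it was 5097, with 2 members in place of 0. There F11R was at 0.20 under 10%, MCAM, VCAM1 and ICAM1 at -0.36, -0.37 and -0.23 above 10%, ICAM1 at -0.074 with limma-voom, and JAM3 at 0.0073 (without mitochondrial genes in library sizes), 0.040 (at least 5 CPM), 0.15 (mitochondrial term) and 0.58 (under 10%). In ST8Sia6 plasmid versus GFP control DESeq2 called 11 genes. PECAM1 was at -0.20 (mitochondrial term), -0.29 (under 10%) and -0.31 (without libraries weighed against their label), MCAM at -0.24 and -0.30 under the last 2, ICAM1 at 0.24 and JAM3 at 0.14 (mitochondrial term), and JAM3 at 0.0053 (under 10%). In wild type versus GFP control, members passing were 1, but 2 with DESeq2, 2 with the mitochondrial term and 0 without GFP control 1 and 2, and genes passing were 458, but 1410, 1341 and 27, and 277 without libraries weighed against their label, where VCAM1 was at -1.16. Of 18 genes nearest by Pearson correlation, 6 were also nearest by Spearman. Leaving out 1 library at a time gave 2 to 5 members and 4099 to 7130 genes in cell-cell interaction versus GFP control, 0 to 1 and 0 to 3308 versus ST8Sia6 plasmid, 0 to 2 and 65 to 407 in wild type, and 0 to 1 genes in ST8Sia6 plasmid versus GFP control. Over the same settings the log2 fold change of VCAM1 ran from -0.37 to 1.08, of ICAM1 from -0.86 to 0.16 and of JAM3 from -0.42 to -0.018 in cell-cell interaction versus GFP control, from -0.50 to 0.99, -0.54 to 0.50 and -0.30 to 0.091 versus ST8Sia6 plasmid, and VCAM1 from -1.29 to 1.81 in wild type. Where a setting only drops libraries or genes it has fewer of them to test; otherwise the cause was not tested. No paired analysis was possible because the labels number no replicates and the numbers used here follow the order of the samples. Depth limits JAM2, at 0 to 30 counts per library, most.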

Other observations

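The library labelled KEC plus all cells belonged to no comparison. Over all genes its closest library was wild type 2, at 2.27 chi-square units per degree of freedom, which was the closest of all pairs and still above sampling noise. Its levels of the adhesion genes lay beside those of wild type 2, with 88.3 against 84.5 CPM of VCAM1, 254 against 246 CPM of ICAM1, 58.7 against 56.9 CPM of MCAM, 55.1 against 57.5 CPM of JAM3 and 2.92 against 2.87 CPM of PECAM1. JAM2, at 14 against 30 counts, differed more. The summed leukocyte markers were 38.3 and 40.9 CPM, the lowest values of the series.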
